A study of Mus musculus with 8 samples.

Results

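Sox4, Sox11 and Sox12, the SoxC group of transcription factor genes, and Sox21, a SoxB2 gene, were examined in mouse lenses at embryonic day 14.5. These 4 genes, of 43432 in the count table, were chosen by their log2 fold change in these same libraries, since they were higher in lenses labelled Mettl3 CKO than in control lenses, and as intron-poor Sox genes. Their difference between genotypes is therefore given as a description, with no test. Messenger RNA was sequenced from 4 libraries of Mettl3 CKO lenses, a conditional knockout of the catalytic subunit of the N6-methyladenosine (m6A) writer, and from 4 libraries of control lenses. Libraries are named by genotype and a letter, and letters a and b (set 1) were kept apart from letters c and d (set 2). The control titles of the 2 sets are spelled differently, and the totals lay between 19110170 and 25662135 gene counts in set 1 and between 45310168 and 56098211 in set 2. No label calls a set a batch, and the model carried it beside genotype. The labels name no Cre driver, strain or control genotype and give no number of lenses or animals behind a library. The p-values are therefore set against the variation among libraries, some of which may be technical.

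Sox proteins bind the minor groove of DNA through a high mobility group (HMG) box and bend it. The SoxC proteins share an activation domain at their C-terminal end and act in progenitors of neurons, mesenchyme and other tissues as they begin to differentiate. Mice without Sox11 have defects of lens and anterior eye formation. Sox21 acts mainly as a repressor, and in the chick neural tube it opposes the SoxB1 activators. In the lens the SoxB1 genes are the better known members of the family: Sox2 acts with Pax6 in lens induction, and Sox1 is needed for gamma crystallin expression and fiber elongation in the mouse. The enzyme complex that contains Mettl3 methylates adenosine within short sequence contexts, of which GGACT (with U for T in the RNA) is a common form, and methylated sites are frequent near stop codons.

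Each of the 4 genes is a single-exon gene on the minus strand of mm10, by the GENCODE M21 annotation. Sox4 (ENSMUSG00000076431) lies at chr13:28948919-28953713, Sox11 (ENSMUSG00000063632) at chr12:27334264-27342574, Sox12 (ENSMUSG00000051817) at chr2:152393611-152398063 and Sox21 (ENSMUSG00000061517) at chr14:118233232-118237030. Their genes span between 3799 and 8311 bases, against a median span of 24874 bases for the 14041 protein-coding genes tested. Their transcripts are not short, because no part of the span is intron: that of Sox11 is longer than or as long as 95.6% of the tested coding transcripts (8311 bases), and that of Sox21 than or as 64.8% (3799 bases), where the median is 3008 bases. The GC content of the transcript is 59.9% in Sox12, 58.3% in Sox21, 51.1% in Sox4 and 46.5% in Sox11, around a median of 50.7%. Over a window of 79 residues, about the length of an HMG box, the proteins translated from these coding sequences share 74 residues between Sox4 and Sox11, 70 between Sox4 and Sox12 and 69 between Sox11 and Sox12. Sox21 shares between 51 and 54 residues with each of the other three.

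The GGACT motif stands near the stop codon of every SoxC coding sequence, within a stretch that is alike among them. These windows are shown because their base changes decide which SoxC gene holds the motif where. Each has 25 bases on the transcribed strand, with GGACT in capitals where it is present. In the first set the 5 middle bases begin 82 bases before the stop codon, and the motif is found in Sox4 and Sox12.
Sox4 (chr13:28951769-28951793): tcgaattcccGGACTattgcacgcc
Sox11 (chr12:27341291-27341315): tcgagttccccgactactgcacgcc
Sox12 (chr2:152396824-152396848): tcgaattcccGGACTattgcacccc
In the second set the middle bases begin 43 bases before the stop codon, and the motif is found in Sox11 and Sox12.
Sox4 (chr13:28951730-28951754): tgatctcgggagattggctggagtc
Sox11 (chr12:27341252-27341276): tgatcgcgggGGACTggctggaggc
Sox12 (chr2:152396785-152396809): tgatcgcaggGGACTggcgctcgtc

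Of 14033 tested coding genes, 11.9% hold GGACT within the last 100 coding bases, as the 3 SoxC genes do and Sox21 does not. Over the whole transcript, Sox12 holds 12 copies, 6 of them coding, Sox11 holds 11 with 3 coding, and Sox4 holds 9 with 3 coding. Per kilobase this is 2.69 in Sox12, 1.88 in Sox4 and 1.32 in Sox11, against a median of 1.06. Sox21 is the odd one out, with a single copy, 0.263 per kilobase, 807 bases after the start of its stop codon. That site reads as follows, with the motif in capitals.
Sox21 (chr14:118233986-118234010): ccgctggcttGGACTtgtgacacag
Methylation was not measured in these libraries, so a match describes the letters only.

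The promoter windows are shown because the 4 genes were selected for moving in the same direction. They are RefSeq windows of the GRCm38.p6 build, from 250 bases before to 50 bases after the start site, on the minus strand. Capitals mark matches, on either strand, to CCAAT (reverse complement ATTGG) and to the GC box GGGCGG (reverse complement CCGCCC).
Sox4 (chr13:28953650-28953949): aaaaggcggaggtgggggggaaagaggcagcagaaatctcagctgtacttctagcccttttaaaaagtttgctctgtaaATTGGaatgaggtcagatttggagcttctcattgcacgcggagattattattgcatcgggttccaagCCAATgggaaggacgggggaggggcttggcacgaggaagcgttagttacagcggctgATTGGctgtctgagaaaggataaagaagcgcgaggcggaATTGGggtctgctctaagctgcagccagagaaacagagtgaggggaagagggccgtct
Sox11 (chr12:27342669-27342968): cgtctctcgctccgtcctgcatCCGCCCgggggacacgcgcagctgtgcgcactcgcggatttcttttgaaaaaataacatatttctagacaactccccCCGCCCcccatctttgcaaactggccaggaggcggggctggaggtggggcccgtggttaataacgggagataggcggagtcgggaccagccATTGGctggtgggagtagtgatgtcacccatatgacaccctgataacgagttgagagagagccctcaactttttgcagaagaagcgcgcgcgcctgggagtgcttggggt
Sox12 (chr2:152397997-152398296): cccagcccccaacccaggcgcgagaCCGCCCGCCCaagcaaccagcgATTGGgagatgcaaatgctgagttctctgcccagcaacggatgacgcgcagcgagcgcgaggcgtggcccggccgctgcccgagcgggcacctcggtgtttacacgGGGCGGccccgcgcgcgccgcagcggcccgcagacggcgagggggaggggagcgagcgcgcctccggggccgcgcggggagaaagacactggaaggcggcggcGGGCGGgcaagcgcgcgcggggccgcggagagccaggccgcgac
Sox21 (chr14:118236981-118237280): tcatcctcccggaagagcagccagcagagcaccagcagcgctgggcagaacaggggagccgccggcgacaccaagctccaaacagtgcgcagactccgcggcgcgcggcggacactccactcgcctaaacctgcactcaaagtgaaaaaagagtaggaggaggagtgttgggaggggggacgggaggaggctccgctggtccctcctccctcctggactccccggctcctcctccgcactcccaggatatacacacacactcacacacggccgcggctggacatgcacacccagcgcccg

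CCAAT is found 4 times in the Sox4 window and once each in those of Sox11 and Sox12, and 37.4% of the 32851 promoter windows in the table hold it. GGGCGG is found 4 times in Sox12, where 2 of the matches overlap, and 2 times in Sox11, and 35.7% of all windows hold it. Neither TATAAA (13.6% of all windows) nor AACAAT, a core sequence bound by Sox proteins (10.7%), is found in any of the 4. The Sox21 window matched none of these motifs, so no searched motif is common to all 4 genes. Their windows are rich in CG dinucleotides, with 47 in Sox12, 22 in Sox21, 21 in Sox11 and 12 in Sox4, against a median of 7.

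After a filter on low counts, which all 4 genes passed, 16241 genes were tested. Mettl3 had 13.4, 15.9, 8.11 and 12.2 CPM (gene counts scaled to library size) in replicates a to d of the CKO lenses, against 28.4, 25.4, 23.8 and 21.4 in the controls. Every CKO library was below every control library (exact permutation test of log2 CPM, two-sided, p = 0.0286, the smallest that 4 against 4 libraries can give). The lens markers were abundant throughout: 8 of them summed to between 74059 and 103052 CPM in CKO libraries and between 89759 and 117776 CPM in controls. Cryaa made up most of that sum, with means of 76681 CPM in CKO lenses and 95835 CPM in controls. Of the 8, only Cryab passed, and it fell (log2 fold change -0.57, SE 0.14, edgeR adjusted p = 0.0309). Foxe3 was higher in each CKO library than in each control library but did not pass (0.61, SE 0.18, adjusted p = 0.0517). Markers of other cells were far below the lens markers in summed level and varied between libraries. Those of endothelium summed to between 141 and 458 CPM in CKO libraries and between 150 and 367 CPM in controls. Those of periocular mesenchyme summed to between 46.8 and 248.9 CPM in CKO libraries and between 60.9 and 248.6 CPM in controls. The retinal progenitor genes Rax, Six6 and Lhx2 were highest in CKO c, and among controls in control a. The 5 retinal progenitor markers used here summed to between 107 and 182 CPM in CKO libraries and between 85.1 and 119.9 CPM in controls. Sfrp2 made up most of that sum, with means of 102.0 CPM in CKO lenses and 89.5 CPM in controls. In the same order, the means were 4.85 and 1.01 CPM for Rax, 7.06 and 1.03 for Six6, 9.11 and 1.75 for Lhx2, and 2.82 and 2.76 for Hes5. The 4 macrophage markers C1qa, C1qb, Csf1r and Ptprc summed to between 27.1 and 62.7 CPM in CKO libraries and between 19.0 and 25.9 CPM in controls, with no overlap. These values are set beside the results they touch.

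Sox21 stood farthest apart between the genotypes and was the rarest of the 4. It had 7.24, 4.96, 7.52 and 5.58 CPM in replicates a to d of the CKO lenses, against 1.30, 1.23, 0.83 and 1.68 CPM in the control lenses. The lowest CKO library was well above the highest control library. The means were 6.32 ± 1.25 CPM in CKO lenses and 1.26 ± 0.349 CPM in controls (SD, n = 4 each), a fitted log2 fold change of 2.32 (SE 0.27), or 4.99-fold. These values rest on between 28 and 428 counts per library. Among 16241 genes tested, 53 had a log2 fold change at least as high, Sox21 included. In bulk lenses, more cells that express a gene and more RNA per cell cannot be told apart.

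Sox11 had the widest spread among CKO libraries. Its level was 45.0, 36.8, 102.0 and 56.8 CPM in CKO replicates a to d, against 27.5, 14.8, 17.9 and 22.2 CPM in controls. CKO c was higher than any other library, and the lowest CKO library was above the highest control. The means were 60.1 ± 29.1 CPM in CKO lenses and 20.6 ± 5.52 CPM in controls (SD, n = 4 each), with a log2 fold change of 1.48 (SE 0.32), or 2.78-fold. Sox11 is also an abundant gene of retinal progenitors and young neurons, and markers of those cells are given beside it. Rax, a retinal progenitor gene, had 3.73, 3.59, 10.6 and 1.49 CPM in CKO lenses against 3.40, 0.0441, 0.219 and 0.378 CPM in controls, and Atoh7, which specifies retinal ganglion cells, had 1.26, 7.82, 21.7 and 1.32 CPM against 9.14, 0.22, 0.41 and 0.81 CPM.

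CKO c and control a were the highest library of their own genotype in these retinal genes, although CKO a and b also had more Rax than control a. Without CKO c and control a, the log2 fold change of Sox11 was 1.48 (SE 0.16). The same fit gave 0.78 for Sox4, 0.74 for Sox12 and 2.21 for Sox21. The 6 libraries of that fit still differed in retinal genes. Lhx2, another retinal progenitor gene, had 7.66, 3.22 and 3.97 CPM in CKO a, b and d, against 0.794, 0.438 and 0.415 CPM in controls b, c and d. Each of Rax, Six6 and Lhx2 was higher in all 3 of these CKO libraries than in all 3 of these controls. The fit therefore does not take retinal RNA out of the comparison, and the part of retinal RNA in the values of the 4 genes was not tested. Without CKO c alone the value for Sox11 was 1.17.

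Sox12 was the most abundant of the 4 and had the smallest spread relative to its level. It had 151, 131, 171 and 146 CPM in CKO replicates a to d, against 104, 93.2, 74.8 and 82.0 CPM in controls. The genotypes did not overlap, and CKO c was again the highest library. The means were 149.7 ± 16.6 CPM in CKO lenses and 88.4 ± 12.7 CPM in controls (SD, n = 4 each), with a log2 fold change of 0.77 (SE 0.12), or 1.70-fold.

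Sox4 had 42.98, 53.1, 44.1 and 36.3 CPM in CKO replicates a to d, against 28.7, 23.2, 33.5 and 16.9 CPM in controls. Its genotypes came closest to each other: CKO d was just above control c. CKO c was not the highest library here, unlike for the other three genes. The means were 44.1 ± 6.89 CPM in CKO lenses and 25.6 ± 7.15 CPM in controls (SD, n = 4 each), with a log2 fold change of 0.78 (SE 0.20), or 1.72-fold. For each of the 4 genes every CKO library was above every control library, which held for 8.96% of all genes tested. As the genes were chosen for this contrast, nothing is read from that count.

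**Figure D1:**
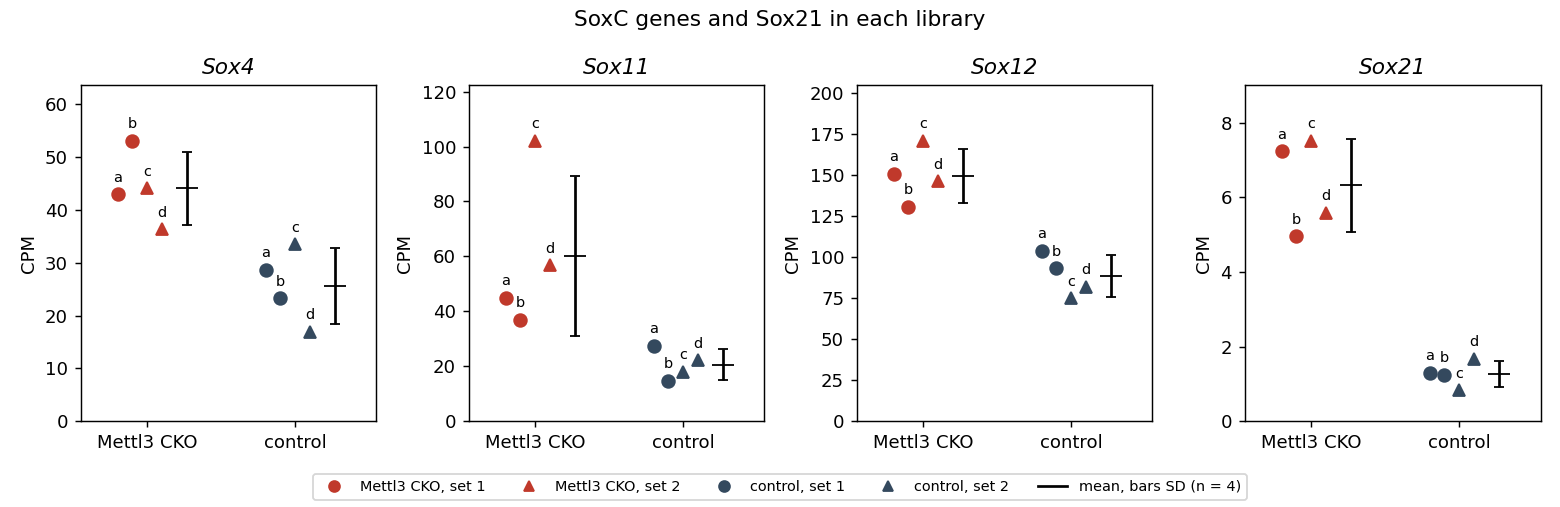
CPM of Sox4, Sox11, Sox12 and Sox21 in each library, labelled by replicate letter, with the mean and SD of 4 libraries per genotype beside them; circles are set 1 and triangles set 2. Each CKO library is above each control library, and CKO c stands out for Sox11 at 102.0 CPM.

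Sox4 and Sox21 each share sequence with a long non-coding RNA gene on the opposite strand, and the strand setting of the counting is not given in the sources used here. Gm26735 (chr13:28943048-28951671) covers 2616 of the 4795 exon bases of Sox4 and had 0 counts in every library. Gm4675 (chr14:118236232-118261199) covers 713 of the 3799 exon bases of Sox21 and had means of 0.704 CPM in CKO lenses and 0.385 CPM in controls (log2 fold change 0.80, SE 0.49, edgeR adjusted p = 0.328). Reads of the shared bases may have been assigned to either gene or left out, so the levels of Sox4 and Sox21 are uncertain to that extent.

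The size of the genotype difference was compared between the sets, a contrast that did not choose the genes. Within set 1 the log2 fold changes were 2.24 for Sox21, 0.92 for Sox11, 0.87 for Sox4 and 0.49 for Sox12. Within set 2 they were 2.41 for Sox21, 2.02 for Sox11, 0.72 for Sox4 and 1.05 for Sox12. The fitted values of Sox11 and Sox12 were larger in set 2, while those of Sox4 and Sox21 were close. None of these differences passed the interaction test. For Sox11 the interaction, set 2 minus set 1, was 1.04 (SE 0.55, edgeR adjusted p = 0.407), for Sox12 0.50 (SE 0.19, adjusted p = 0.226), for Sox4 -0.21 (SE 0.44, adjusted p = 0.848) and for Sox21 0.11 (SE 0.53, adjusted p = 0.935). By edgeR, 0 of 16241 genes passed this test (0%), with 2662 at an unadjusted p under 0.05, while DESeq2 called 626. DESeq2 called none of the 4 genes, with adjusted p of 0.0831 for Sox12 and 0.300 for Sox11. With no filter on low counts edgeR called 918. Among the fits without 1 library, the fit without control d called 1984 and the others at most 3, again none of the 4.

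**Figure D2:**
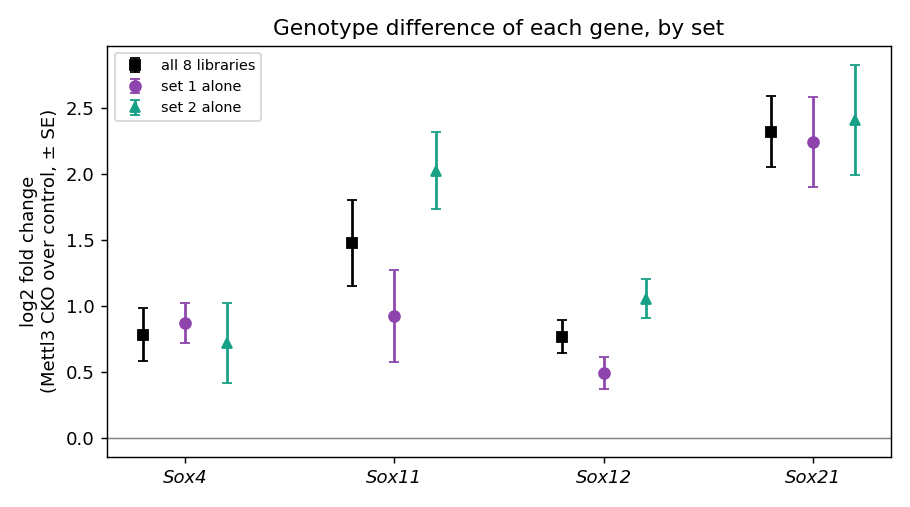
Fitted log2 fold change of each gene, CKO over control, with its SE, from all 8 libraries (squares), set 1 alone (circles) and set 2 alone (triangles). Sox21 lies above 2 in every fit, and Sox11 shows the widest gap between sets, 0.92 and 2.02.

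Between the control libraries alone, set 2 against set 1, none of the 4 genes passed the test. Sox12 had a log2 difference of -0.33 (SE 0.13, edgeR adjusted p = 0.330), Sox11 of -0.08 (SE 0.39, adjusted p = 0.950), Sox4 of -0.05 (SE 0.32, adjusted p = 0.963) and Sox21 of -0.01 (SE 0.39, adjusted p = 0.996). In this comparison 18 of 16241 genes passed, or 0.111% (0.0246% higher and 0.0862% lower in set 2).

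Levels were compared between genes per length, as CPM per kilobase of exon. In control lenses the order was Sox12, Sox4, Sox11 and Sox21, with no overlap between neighbours: between 16.8 and 23.3 for Sox12, 3.52 and 6.99 for Sox4, 1.78 and 3.31 for Sox11, and 0.218 and 0.442 for Sox21. In CKO lenses the order of the means was the same, but Sox4 and Sox11 overlapped. There Sox12 lay between 29.4 and 38.4, Sox4 between 7.57 and 11.1, Sox11 between 4.43 and 12.3, and Sox21 between 1.30 and 1.98. The ratio of Sox4 to Sox11, which does not depend on how libraries are scaled, was 1.66, 2.50, 0.750 and 1.11 in CKO replicates a to d, against 1.81, 2.73, 3.24 and 1.32 in controls. Sox11 exceeded Sox4 per length in CKO c only. Sox21 made up between 2.83% and 3.80% of the summed per-length level of the 4 genes in CKO libraries, against between 0.833% and 1.77% in controls. Sox12 held most of that sum in each library, between 62.1% and 67.5% in CKO lenses and between 64.2% and 75.1% in controls.

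Within the wider family, 17 Sox genes were tested. Sox1, the SoxB1 gene of lens fibers, led in both genotypes, with a mean of 59.5 CPM per kb in CKO lenses and 62.3 CPM per kb in controls. Sox12 was next in both, at 33.6 and 19.9 CPM per kb in CKO and control lenses. Sox21 ranked 10th by mean in CKO lenses and 13th in controls, Sox11 7th and 8th, and Sox4 5th and 6th. Sox21 was below each of Sox3, Sox8 and Sox9 in the control means (0.332 against 0.865, 0.740 and 0.771 CPM per kb). In CKO lenses its mean of 1.66 CPM per kb was above theirs (0.799, 1.11 and 1.61), although its range overlapped with the range of each.

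**Figure D3:**
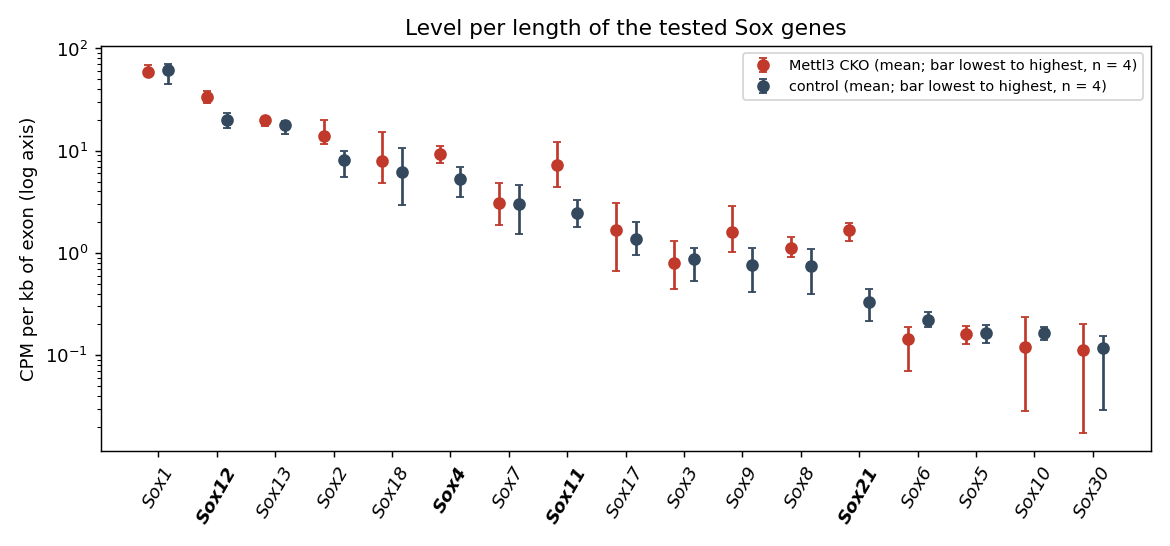
Level per length (CPM per kilobase of exon, log axis) of the 17 tested Sox genes in CKO and control lenses, in the order of the control means; points are means and bars run from the lowest to the highest of 4 libraries. The SoxC genes and Sox21 (bold) lie apart by genotype, as do Sox2 and Sox6, while Sox1 overlaps.

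None of the other 13 tested Sox genes passed the test between genotypes by edgeR, where 10.5% of all tested genes did (6.50% higher and 4.01% lower). At an unadjusted p under 0.05 there were 2, Sox2 and Sox9, against 4301 of the 16241 genes tested. DESeq2 called both as higher, with adjusted p of 0.00618 and 0.0397. The 13 had a median log2 fold change of -0.06, against -0.03 over all genes tested, and 8 fitted values lay below 0.

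Sox2 came nearest, with 26.6, 24.1, 41.0 and 24.3 CPM in CKO replicates a to d, against 20.5, 14.8, 11.4 and 19.4 CPM in controls. The genotypes did not overlap, and CKO c was the highest, as for Sox11 and Sox12. The log2 fold change was 0.81 (SE 0.24, edgeR adjusted p = 0.0630), about as large as those of Sox4 and Sox12. It passed without control a (adjusted p = 0.0404), while without CKO c the value was 0.57 (adjusted p = 0.122). Without both libraries it was 0.71 (adjusted p = 0.107). The retina expresses Sox2 too, and the part of the retinal genes in its value was not tested.

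Sox1 was level between the genotypes, with a mean of 287.4 ± 29.0 CPM in CKO lenses and 300.9 ± 56.1 CPM in controls (SD, n = 4 each; log2 fold change -0.06, SE 0.15, adjusted p = 0.837). It is a single-exon gene like Sox2 and Sox3, so exon number alone does not separate the 4 genes from the rest of the family. Sox3, the remaining SoxB1 gene, had -0.13 on the log2 scale (SE 0.39, adjusted p = 0.871). Among the SoxE genes, which act in glia, neural crest and cartilage, Sox9 had 1.03 (SE 0.41, adjusted p = 0.149), Sox8 0.67 (SE 0.30, adjusted p = 0.189) and Sox10 -0.54 (SE 0.56, adjusted p = 0.590). Sox9 passed without control a (log2 fold change 1.44, adjusted p = 0.0422). Among the SoxD genes, Sox13 had 0.15 (SE 0.12, adjusted p = 0.452), Sox5 -0.07 (SE 0.25, adjusted p = 0.898) and Sox6 -0.65 (SE 0.31, adjusted p = 0.217). Each CKO library had less Sox6 than each control library, at 2.31, 2.34, 1.04 and 2.79 CPM against 3.52, 2.82, 2.87 and 3.93 CPM, a pattern held by 7.38% of all genes tested. The SoxF genes, which mark endothelium, had -0.07 for Sox7, -0.0022 for Sox17 and 0.26 for Sox18 (SE 0.44, 0.45 and 0.56), with adjusted p between 0.820 and 0.998. Each of these SoxF values averages opposite signs. Sox17 was 1.06 (SE 0.25, adjusted p = 0.0221) in set 1 alone and -1.02 (SE 0.37) in set 2 alone, with an interaction of -2.14 (SE 0.48, edgeR adjusted p = 0.172). In the same sets Sox7 was 0.60 (SE 0.54) and -0.70 (SE 0.37), and Sox18 was 1.16 (SE 0.71) and -0.59 (SE 0.39). Their interactions did not pass either (edgeR adjusted p = 0.437 and 0.392). Sox30 had -0.23 (SE 0.60, adjusted p = 0.845), and Sox14, Sox15 and Sry were too low to be tested.

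Of 8 tested genes of 9 listed as SoxC targets, Tead2, a DNA-binding partner of Yap, rose and Bmp7, a secreted ligand of lens and eye development, fell, and 6 did not pass. A single call each way of 8 is close to the shares over all genes tested, 6.50% higher and 4.01% lower. Tead2 had 87.2, 82.0, 111.9 and 98.4 CPM in CKO replicates a to d, against 72.7, 68.9, 55.9 and 70.4 CPM in controls, with no overlap (log2 fold change 0.50, SE 0.12, edgeR adjusted p = 0.0303). Bmp7 had 23.1, 21.2, 13.2 and 19.1 CPM in CKO lenses against 39.3, 32.5, 22.4 and 34.5 CPM in controls, where CKO a lay above control c (log2 fold change -0.76, SE 0.16, adjusted p = 0.0162). The list median was 0.24, against -0.03 over all genes tested, and its sign turned between the sets, with -0.54 in set 1 and 1.08 in set 2. The Tead2 call ended without CKO a, c or d or control b or d (adjusted p up to 0.107), and that of Bmp7 without control d (0.0690). Without CKO c and control a together neither passed (adjusted p 0.140 and 0.131).

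Several of the neuronal genes among these targets were high in single libraries. Tubb3, a neuronal tubulin gene, had 4.25, 11.04, 29.7 and 3.28 CPM in CKO lenses against 26.9, 5.25, 6.21 and 4.10 CPM in controls. CKO c and control a were both high, and the genotypes overlapped (log2 fold change 0.33, SE 1.10, adjusted p = 0.888). Dcx, a microtubule protein gene of young neurons, had -0.28 (SE 1.59, adjusted p = 0.936), and the retinal ganglion cell factors Atoh7 and Pou4f2 had 2.01 (SE 1.82, adjusted p = 0.547) and 1.74 (SE 1.75, adjusted p = 0.588). Pou4f2 passed without control a (adjusted p = 0.0417). Map2, a neuronal microtubule protein gene, had -0.39 (SE 0.14, adjusted p = 0.103) and passed without control c (-0.48, adjusted p = 0.0338), and Ezh2, which encodes a histone methyltransferase, had 0.16 (SE 0.13, adjusted p = 0.473). Eomes was too low to be tested. Class III POU proteins act with Sox proteins on neural genes, and the transcripts of their genes were nearly absent. Pou3f1 had a mean of 0.786 CPM in CKO lenses and 0.499 CPM in controls (log2 fold change 0.62, SE 1.10, adjusted p = 0.773). Pou3f3 had 0.252 and 0.339 CPM (-1.08, SE 1.02, adjusted p = 0.546), and Pou3f2 and Pou3f4 were not tested.

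**Figure D4:**
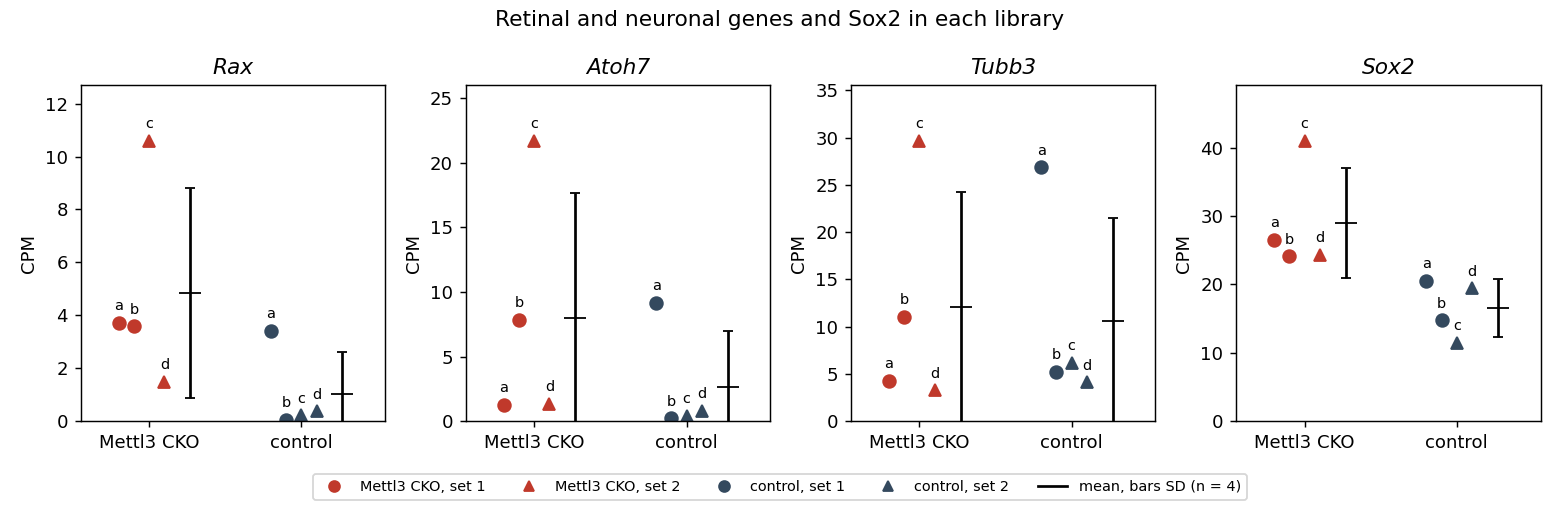
CPM of the retinal progenitor gene Rax, the ganglion cell factor gene Atoh7, the neuronal gene Tubb3 and Sox2 in each library, with mean and SD of 4 libraries per genotype. CKO c is the highest library for all 4, and control a is the highest control library for all 4.

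The nearest coding genes on the chromosome were examined on each side of the 4 genes. Zcchc3, which lies 13891 bases from Sox12 and is also a single-exon gene, rose: it had 58.7, 56.8, 75.9 and 63.3 CPM in CKO replicates a to d, against 43.5, 41.8, 33.4 and 39.0 CPM in controls. The genotypes did not overlap, and the log2 fold change of 0.69 (SE 0.12, edgeR adjusted p = 0.00772) was close to that of Sox12. It passed in each of the 8 fits without 1 library. No other tested neighbour passed. Gpr180, 69970 bases from Sox21, had 0.03 (SE 0.10, adjusted p = 0.878), Cdkal1, 238032 bases from Sox4, had -0.06 (SE 0.14, adjusted p = 0.832) and Cmpk2, 854426 bases from Sox11, had 0.14 (SE 0.29, adjusted p = 0.812). Nrsn2, Dcdc2c and Gm9376 were too low to be tested and Gm11361 was not analysed here.

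Intron-poor genes were compared with the rest, leaving out the 4 Sox genes. Of 403 tested coding genes with a single exon, 62 rose (15.4%) and 7 fell (1.74%), against 6.50% and 4.01% of all genes tested. Over the 14041 protein-coding genes tested, from which all the exon classes are drawn, the shares were 7.31% and 4.22%. Of 669 with 2 exons, 132 rose (19.7%) and 13 fell (1.94%). The shares then shifted with exon number: 10% rose and 2.98% fell among genes of 3 to 5 exons, 6.28% and 3.41% among those of 6 to 10, and 4.70% and 5.81% among those of over 10. The median log2 fold change was 0.17 for a single exon, 0.25 for 2 exons, 0.05 for 3 to 5, -0.02 for 6 to 10 and -0.05 for over 10 exons. The median of single-exon genes was above 0 in each set, at 0.23 in set 1 and 0.12 in set 2, and that of genes with 2 exons was 0.27 in both. Genes of 3 to 5, 6 to 10 and over 10 exons had medians of 0.15, 0.03 and -0.10 in set 1. In set 2 these were -0.02, -0.03 and 0.01, with no steady decline.

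Within the single-exon class, the share that rose was 12.6% of 135 genes with transcripts up to 1577 bases, 14.9% of 134 genes up to 2859 bases and 18.7% of 134 longer genes, the length class of all 4 Sox genes. The shares that fell were 2.22%, 1.49% and 1.49%. In the same order, the median log2 fold change was 0.25, 0.20 and 0.23 in set 1 and -0.08, 0.22 and 0.25 in set 2. Transcript GC content and GGACT density were similar across exon classes, with medians from 50.5% to 52.4% and from 1.01 to 1.09 per kilobase. After smooth trends on length and GC content were taken out per library, the log2 fold changes were 2.21 for Sox21, 1.46 for Sox11, 0.73 for Sox4 and 0.62 for Sox12, and the single-exon median was 0.16. Without control d the count of single-exon genes that rose was 26, without CKO d 32 and without CKO c 40. It was 24 of the single-exon genes tested, or 5.90%, without CKO c and control a together, when 462 genes were called in either direction. The count of all genes called also moved when libraries were left out. These counts alone therefore do not show whether the excess of single-exon genes over all genes changed.

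**Figure D5:**
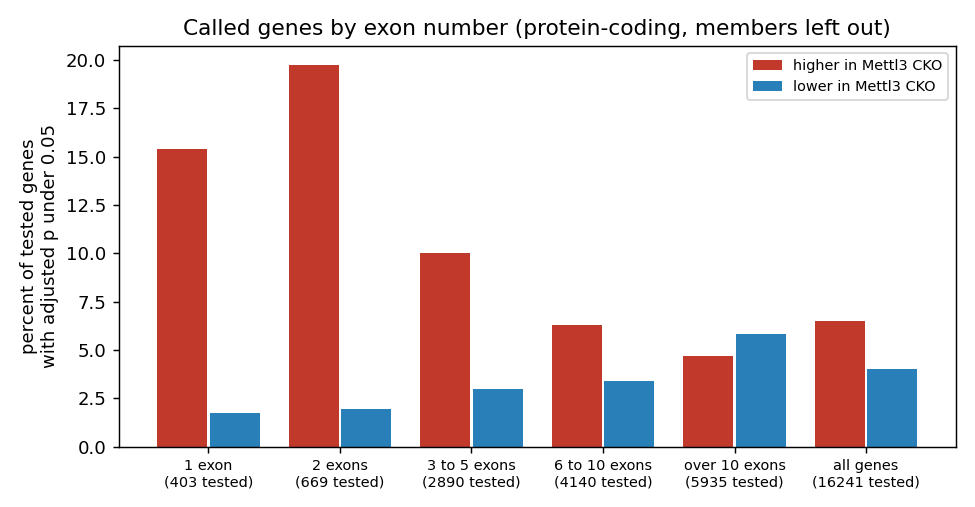
Percent of tested protein-coding genes called higher and lower in CKO lenses by number of exons, with the 4 Sox genes left out, and the same over all genes tested at the right. The share called higher is 15.4% and 19.7% for 1 and 2 exons and 4.70% for over 10 exons.

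The genes whose level followed the 4 Sox genes most closely over the 8 libraries were sought among 10203 coding genes that averaged 5 CPM or more. These correlations carry the difference between genotypes that chose the Sox genes, so they are given as a description. The same holds for the log2 fold changes and adjusted p-values of the genes found this way. A genotype difference in them follows from how they were picked, and nothing is read from it. For the mean profile of the 4 genes the closest was Cyp26a1, which encodes a retinoic acid degrading enzyme (Pearson r = 0.993). Its mean was 9.56 CPM in CKO lenses and 3.35 CPM in controls (log2 fold change 1.53, SE 0.20, edgeR adjusted p = 0.00174). Next were the creatine transporter gene Slc6a8 (r = 0.990), the ERK inhibitor gene Spred2 (r = 0.985), the adhesion receptor gene Adgrl2 (r = 0.985) and Chpf, which acts in chondroitin synthesis (r = 0.983). These 4 rose as well, by log2 values between 0.69 and 1.35 (adjusted p from 0.000685 to 0.00452).

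Each Sox gene taken alone had other closest genes, and Cyp26a1 was the only gene to recur, with Sox12 (r = 0.988). Sox4 was closest to the matrix proteoglycan gene Agrn (r = 0.996), Txnip (r = 0.986) and the Wnt co-receptor gene Lrp5 (r = 0.984). Agrn did not pass between genotypes (0.56, SE 0.16, adjusted p = 0.0570). Sox11 was closest to Poc1b, a centriole protein gene (r = 0.992, adjusted p = 0.0525), Arhgap11a (r = 0.990) and the calcium sensor gene Ncs1 (r = 0.990). Sox12 was closest to Cenpb (r = 0.995), a centromere protein gene with a single exon, which rose by 0.73 (SE 0.11, adjusted p = 0.00336), and then to Errfi1, which encodes an inhibitor of the EGF receptor (r = 0.991). Sox21 was closest to Taf5l (r = 0.987), Fam110b (r = 0.982) and Pla2g15 (r = 0.979), which rose by 0.79, 1.29 and 0.68.

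Macrophage transcripts were also higher in CKO lenses. Their fitted difference was larger in set 1, but no interaction passed (edgeR adjusted p = 0.177 for C1qa, 0.204 for C1qb, 0.172 for Csf1r and 0.465 for Ptprc). C1qa had 15.0, 13.0, 5.67 and 6.88 CPM in CKO lenses against 4.59, 4.67, 4.65 and 3.85 CPM in controls, and rose (log2 fold change 1.07, edgeR adjusted p = 0.0136), as did C1qb (0.89, adjusted p = 0.0281). Csf1r and Ptprc overlapped between genotypes and did not pass (adjusted p 0.105 and 0.0731). The summed markers were 62.6 and 62.7 CPM in CKO a and b against 22.6 and 24.8 CPM in controls a and b, and 28.2 and 27.1 CPM in CKO c and d against 25.9 and 19.0 CPM in controls c and d. Within set 2 the log2 fold change was 0.60 for C1qa (SE 0.26) and 0.47 for C1qb (SE 0.27). Markers of endothelium, periocular mesenchyme, neurons and surface ectoderm overlapped between genotypes in their summed levels, and none of their 20 tested members passed. The endothelial genes Pecam1, Cdh5 and Kdr had log2 fold changes of 1.09, 0.97 and 0.91 in set 1, against -0.33, -0.77 and -0.85 in set 2. Tek, the remaining endothelial marker, had 0.08 and -0.01. None of these passed the interaction test. The summed pigment cell markers lay between 4.23 and 23.0 CPM in CKO libraries and between 3.17 and 6.996 CPM in controls. CKO a, c and d, at 23.0, 18.8 and 13.4 CPM, were above every control, and only CKO b overlapped. The fitted log2 fold changes were 1.41 for Pmel, 1.22 for Dct, 2.005 for Tyrp1 and 1.72 for Tyr. None of these pigment cell genes passed (edgeR adjusted p from 0.104 to 0.151). The part of these cells in the values of the Sox genes was not tested.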

How the data were processed

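The 8 libraries came as a table of raw counts by Ensembl gene ID, which the authors deposited without normalisation. The submitters' processing notes name CASAVA, HISAT2, featureCounts and mm10, and the labels' protocols name TRIzol and an NEBNext Ultra kit. No versions, strand setting or annotation release are given in those sources. Of 43432 gene IDs, 42548 were matched to GENCODE M21.

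The filterByExpr rule (counts of 10 per library and 15 in all) left 16241 genes. Library sizes were scaled by TMM, and edgeR 4.0.16 in R 4.3.3 was fitted with its robust quasi-likelihood F-test, with set and genotype as terms. Standard errors are the log2 fold change divided by the square root of F. Benjamini-Hochberg adjustment ran over all tested genes, with calls at an adjusted p under 0.05. Cell means of set and genotype gave the interaction and the contrast between control sets. DESeq2 1.42.0 was an alternative, and smooth trends on transcript length and GC content were fitted with mgcv 1.9.3. The code was tested on simulated counts. The 4 genes, the gene lists and the tests were chosen with earlier results of these data known. The named genes were the 4 genes, Mettl3, the tested genes of the lists, the nearest coding neighbours and the genes of most similar pattern; marker genes of other cells were named beside the results they touch. Promoter sequences are from RefSeq (GRCm38.p6), where 4 of 4 genes matched by symbol, and motif windows from GENCODE M21 transcripts. Translated coding sequences were compared without gaps over windows of 79 residues. A retinal marker of the original list is not reported here.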

Additional observations from a re-analysis of the deposited data

Results flagged for a closer look

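The tested genes named in the text were examined, except those named only as markers of cell types, such as Rax and Lhx2. Among their 98 groups of 4 libraries, 8 held an outlying library. Its gap to the nearest of the others was an unusually large part of the group's range. Chance alone gives about 1 in 20 such groups. None was a group of Sox4, Sox11, Sox12 or Sox21. CKO c was far above the other CKO libraries for Sox2, at 41.0 CPM, and for Dcx, at 4.79 CPM. Control a was far above the other controls for Tubb3, at 26.9 CPM, for Atoh7, at 9.14 CPM, and for Pou4f2, at 3.59 CPM. Control c was far below the other controls for Sox1, at 217.5 CPM, and above them for Cdkal1, at 14.2 CPM. Control b was far below the others for the rare Sox30, at 0.0882 CPM.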

How the results depend on the processing

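The log2 fold changes of Sox4 and Sox21 moved by less than the spread between libraries under each of 18 alternatives, and those of Sox11 and Sox12 under 16. The exceptions were the sets fitted alone, with 0.92 in set 1 and 2.02 in set 2 for Sox11 and 0.49 and 1.05 for Sox12. Leaving out 1 library gave 0.63 to 1.03 for Sox4, 1.17 to 1.78 for Sox11, 0.66 to 0.88 for Sox12 and 2.13 to 2.54 for Sox21. The counts moved more. All genes called were 665 with the replicate block, 2605 with length and GC trends removed, 858 in set 2 alone, 462 without CKO c and control a, an alternative chosen after seeing the data, and 503 to 2553 without 1 library. Single-exon genes that rose were 36 with the replicate block, 39 in set 1, 35 in set 2, 24 without CKO c and control a, and 26 to 65 without 1 library. Those that fell were 19 with no filter on low counts and with the trends removed, 2 with the replicate block, 3 in set 2, 14 by DESeq2, 4 without CKO c and control a, and 2 to 16 without 1 library.

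Other Sox genes called higher were 2 with no filter and by DESeq2 (Sox2 and Sox9), 1 with no set term (Sox2), 1 in set 1 (Sox17) and 0 to 2 without 1 library. SoxC targets called higher were 3 with no filter, and 0 with the replicate block, in set 1 and without CKO c and control a. Those called lower were 2 with the trends removed, and 0 in set 2 and without CKO c and control a. Each count was 0 to 2 without 1 library. Values near 0 changed sign. Sox1 was 0.16 in set 2 and -0.20 to 0.024 without 1 library, and Sox13 was -0.10 in set 1 and -0.012 with the trends removed. With the trends removed the control set difference was 0.21 for Sox21 and 0.044 for Sox4, and the interaction of Sox21 was -0.22. Without 1 library the control set difference was -0.62 to 0.37 for Sox4, -0.45 to 0.44 for Sox11 and -0.61 to 0.40 for Sox21, and the interaction was -0.63 to 0.36 for Sox4 and -0.30 to 0.72 for Sox21. No interaction or control set difference of the 4 genes passed in any alternative run. The cause of these shifts was not tested. With no filter on low counts edgeR called 918 interactions.

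Same-lettered libraries of the genotypes did not deviate together in every case (correlations -0.06, 0.09, -0.19 and 0.28 for a to d, and 1 of 4 CKO libraries correlated best with its own letter), so the letters were not taken to pair samples. Depth limits Sox21 in controls, where a library held 28 to 89 counts.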
